A study of Mus musculus with 12 samples.

Results

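The nuclear genes for the protein parts of the mitochondrial ribosome were followed through the frontal cortex of 12 male mice in 3 groups. Members were the tested gene models whose symbols begin with Mrps or Mrpl followed by a number, the naming scheme for proteins of the small and the large mitochondrial ribosomal subunit. The rule found 76 genes out of 15201 symbols tested in the series, and all 76 were tested in each of the 3 deposited comparison tables. They stood as 76 models of 18417 in the table of GluN1 against WT, 77 of 18430 in that of GluN1Cre against GluN1, and 77 of 18429 in that of GluN1Cre against WT.

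The GluN1Cre group held 4 mice that the series title describes as Grin1 Cre rescue, the GluN1 group 4 mice described as Grin1 knockdown, and the WT group 4 mice described as wild type. Every animal was an F1 hybrid of C57Bl/6 and 129/SvlmJ, 14 weeks old, and had received tamoxifen from 10 weeks of age for 2 weeks, with 6 mg given by gavage and about 14 mg eaten with the chow. Tamoxifen is the ligand that switches on inducible forms of the Cre recombinase. The promoter that drives Cre and the alleles at Grin1 are not given in the sources used here, and by the group names no group carried Cre without the knockdown. Polyadenylated RNA was sequenced. The authors deposited 1 FPKM value per gene model and group (a level corrected for transcript length and sequencing depth), with their own test, so there are no values per animal and no spread between animals.

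Mitochondria carry their own ribosome, which translates the few proteins encoded in mitochondrial DNA, all of them core subunits of the respiratory chain and of ATP synthase. Its RNA comes from the mitochondrial genome, whereas every one of its proteins is encoded in the nucleus, made in the cytosol and imported. Part of these proteins have counterparts in bacterial ribosomes and part are found only in mitochondria. Neurons depend on oxidative phosphorylation for much of their ATP. Grin1 encodes the subunit that NMDA-type glutamate receptors need, and these receptors carry part of the excitatory current in the cortex.

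Grin1 itself followed the labels. It stood at 56.7 FPKM in GluN1 and 138 FPKM in WT, at 86.7 FPKM in GluN1Cre and 65.7 FPKM in GluN1, and at 78.0 FPKM in GluN1Cre and 138 FPKM in WT (q = 0.00456, 0.038 and 0.0098 in the authors' deposited tables). Markers of cortical excitatory neurons summed to 1448 to 1526 FPKM in the GluN1Cre and GluN1 columns and 1608 to 1615 FPKM in WT, and those of hepatocytes to at most 0.566 FPKM in any column. Olfactory bulb markers differed between the groups: 6 of 7 models were called higher in GluN1 than in WT, where they summed to 93.7 and 35.1 FPKM. Striatal markers summed to 77.4 FPKM in GluN1 and 99.98 FPKM in WT, with 5 of 7 models called lower. In the same comparison 2 of 3 inhibitory neuron models and 2 of 4 astrocyte models were called higher in GluN1. In GluN1Cre against GluN1, 6 of 7 bulb models were called lower, and in GluN1Cre against WT, 5 of 6 bulb models were called higher and 6 of 7 striatal models lower. Of 4 astrocyte models, 1 was called lower in GluN1Cre against GluN1 and 1 higher in GluN1Cre against WT, with 0 of 3 inhibitory neuron models called in either. Blood markers summed to 74.0 FPKM in GluN1Cre and 37.7 FPKM in WT, with 2 of 4 models called higher. Blood models called higher were 1 of 4 in GluN1 against WT and 2 of 4 in GluN1Cre against GluN1. The part of these marker differences in the values below was not tested.

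The 76 genes spanned a wide range of levels. On the FPKM scale, which corrects for length and so allows genes to be compared, the mean over the 6 group values of the 3 tables ran from 0.962 for Mrpl23 to 65.4 for Mrps21, with a median of 17.8 and quartiles of 12.01 and 29.7. The 26 small subunit proteins had a median of 17.2 FPKM and the 49 large subunit proteins 18.3 FPKM. Here Mrps18a and Mrps30 are counted with the large subunit, where structures of the mammalian particle place them, and Mrps36 with neither, since it is now known as a part of the 2-oxoglutarate dehydrogenase complex. Proteins with a bacterial counterpart and those found only in mitochondria had medians of 20.9 and 11.9 FPKM in the small subunit, and of 20.2 and 16.2 FPKM in the large subunit.

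The most abundant models were Mrps21, a small subunit protein with a bacterial counterpart, at 65.4 FPKM, Mrpl20, which has a large subunit counterpart in bacteria, at 63.5 FPKM, and the mitochondria-specific Mrpl52 at 51.9 FPKM. The least abundant were Mrpl23 at 0.962 FPKM, Mrps36 at 2.33 FPKM and Mrpl17 at 3.49 FPKM. The Mrps21 model was merged with Prpf3 in GluN1 against WT and in GluN1Cre against GluN1. The Mrpl52 model of GluN1 against WT covered 242.5 kb where GENCODE lists 2.85 kb. Whether reads of other genes entered these levels, and so the ranking, was not tested. These are transcript levels and say nothing of the amount of protein. Proteins at working sites of the particle differed in level. Mrps12, the counterpart of the bacterial decoding-site protein, was at 29.7 FPKM in GluN1Cre and 31.7 FPKM in GluN1 of one table, and Mrpl12, the stalk protein that recruits translation factors, at 36.8 FPKM in GluN1Cre and 37.6 FPKM in GluN1. Mrpl45, which lies at the exit tunnel and ties the ribosome to the inner membrane, was at 10.6 FPKM in GluN1Cre and 10.7 FPKM in GluN1.

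**Figure D1:**
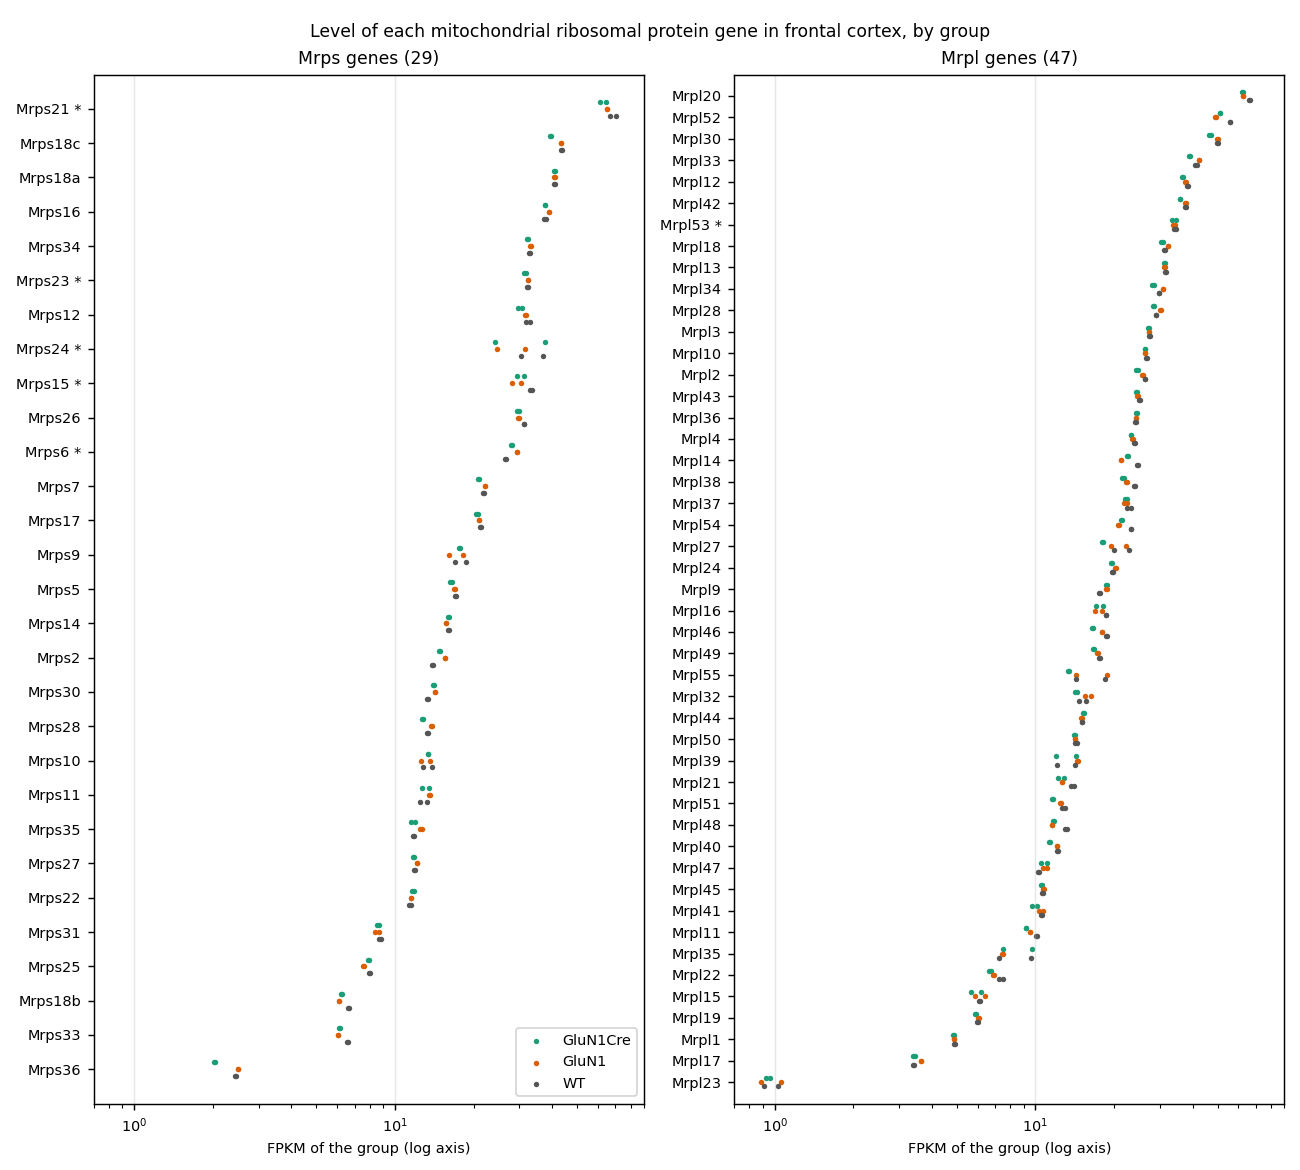
FPKM of each gene (log axis) in GluN1Cre, GluN1 and WT, with Mrps genes on the left and Mrpl genes on the right, ordered by mean level. Each group has 2 points, 1 from each table that holds it, and an asterisk marks genes assembled together with a neighbour in at least 1 table; the groups lie close together while genes differ up to 68.0-fold.

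The same libraries gave slightly different values in the 2 tables that share a group, and the tables were assembled and normalised separately. Between tables the same group's value of a member differed by a median of 0.014 (WT), 0.0065 (GluN1) and 0.016 (GluN1Cre) on the log2 scale, in absolute terms. Single genes moved more: Mrps24 differed by 0.63 in GluN1Cre, where both tables merged it with Urgcp, over different spans, Mrpl35 by 0.40 in WT and Mrpl55 by 0.39 in GluN1. Shifts over 0.1 on the log2 scale were found in 8 of 76 genes for WT, 8 for GluN1 and 4 for GluN1Cre, and groups are compared within a table only.

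In GluN1 against WT, no mitochondrial ribosomal protein gene was called: 0 of 76 models passed the authors' threshold (p under 0.05 and q under 0.10 in Cuffdiff), while 2.52% of all tested models did. At an unadjusted p under 0.05 the count was also 0 of 76, where 7.91% of all models passed. The members' log2 folds had a median of -0.016 and ran from -0.21 to 0.15, with 29 above 0 and 47 below. Over all tested models the median was -0.0033, and 51.2% of folds were below 0. The median size of a fold, without its sign, was 0.042 among the members and 0.065 among all models in the members' range of FPKM. The same values were 0.042 and 0.054 in GluN1Cre against GluN1, and in the opposite order of size, 0.068 and 0.060, in GluN1Cre against WT. Sharing a range does not match the levels: in GluN1 against WT the median level was 18.3 FPKM for the members and 8.78 FPKM for all models in range.

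The member with the smallest p was Mrps2, the counterpart of bacterial S2 in the small subunit. It stood at 15.5 FPKM in GluN1 and 14.0 FPKM in WT, a log2 fold of 0.15 with p = 0.112 in the authors' deposited table. Dividing a fold by the normal deviate of its deposited p gives an approximate standard error of that fold, which for Mrps2 was 0.092, and a 95% interval from -0.034 to 0.33. Mrps2 is also 1 of the 2 members within 10 Mb of Grin1 on chromosome 2: GENCODE M21 places it on the plus strand of GRCm38 from 28468066 to 28471178, 3.15 Mb away. The other, Mrpl41, a mitochondria-specific protein of the large subunit, lies 0.313 Mb away, from 24974117 to 24975098 on the minus strand. Its tested model covered 26.2 kb where GENCODE lists 0.982 kb, and whether reads of other genes entered its values was not tested. Mrpl41 stood at 10.3 FPKM in GluN1 and 10.6 FPKM in WT (log2 fold -0.040, interval -0.33 to 0.25). The neighbours of the targeted gene thus had folds of opposite sign, neither past the threshold.

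Among the members lower in GluN1, Mrpl54, a mitochondria-specific large subunit protein, had 20.8 FPKM in GluN1 and 23.2 FPKM in WT (log2 fold -0.16, p = 0.200 in the authors' deposited table). Mrpl38, part of the central protuberance of the large subunit, had 22.2 FPKM in GluN1 and 24.0 FPKM in WT (log2 fold -0.11), and Mrpl11, which sits at the base of the stalk, 9.52 FPKM in GluN1 and 10.1 FPKM in WT (log2 fold -0.090). None of these differences passed. Log2 folds of Mrps18b and Mrpl20 were -0.13 and -0.086. On the higher side, Mrpl17 had a log2 fold of 0.084, Mrps30 of 0.080 and Mrpl9 of 0.078. By subunit, medians were -0.0096 over 26 small subunit models and -0.019 over 49 large subunit models.

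The largest negative folds in this table were also among the least certain. Mrpl14, a counterpart of bacterial L14 at the face between the subunits, had 21.3 FPKM in GluN1 and 24.6 FPKM in WT, a log2 fold of -0.21 with an implied standard error of 0.38. Mrpl48, of the central protuberance, had a log2 fold of -0.19 with an implied standard error of 0.62, and Mrpl52 one of -0.18 with 0.35. Over the 76 members the implied standard error had a median of 0.11. In these genes the assembled model reached beyond the annotated gene: the Mrpl52 model covered 242.5 kb where GENCODE lists 2.85 kb, the Mrpl14 model 38.3 kb against 12.2 kb, and the Mrpl48 model 92.2 kb against 62.6 kb. Models over 2 times as long as the annotated gene numbered 19 of 76 and had a median implied standard error of 0.15, against 0.10 for the other 57. Length and uncertainty did not always go together. Mrpl48, among the other 57, had the largest implied standard error of any member. Mrps23, with a model of 113.5 kb against 7.12 kb, had the smallest, 0.069. Whether reads of other genes entered these values was not tested.

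**Figure D2:**
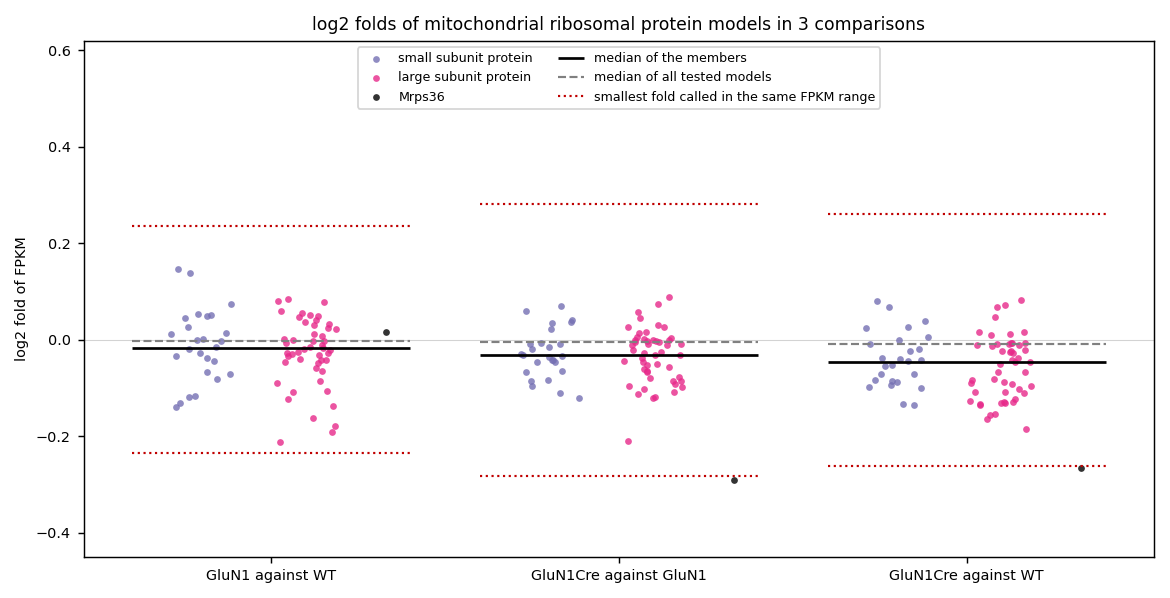
Log2 fold of each member model in the 3 comparisons (vertical axis), split into small subunit proteins, large subunit proteins and Mrps36. Solid lines mark the median of the members, dashed lines that of all tested models, and dotted lines the smallest fold that was called in the members' range of FPKM (0.24, 0.28 and 0.26); nearly all members lie between the dotted lines, and Mrps36 lies just past them in the comparisons with GluN1Cre.

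In GluN1Cre against GluN1, where Grin1 was higher, again 0 of 77 models passed, against 0.689% of all tested models, and 0 of 77 had an unadjusted p under 0.05, against 4.19%. Log2 folds had a median of -0.031 and ran from -0.29 to 0.088, with 20 above 0 and 57 below. Over all tested models the median was -0.0056 and 52.8% of folds were below 0. Small subunit models had a median of -0.032 and large subunit models of -0.026.

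The largest fold belonged to Mrps36, the member that is no ribosomal protein, with 2.05 FPKM in GluN1Cre and 2.50 FPKM in GluN1 (log2 fold -0.29, interval -0.72 to 0.14, p = 0.181 in the authors' deposited table). Next by p was Mrpl46, a mitochondria-specific protein of the central protuberance, with 16.6 FPKM in GluN1Cre and 17.99 FPKM in GluN1 (log2 fold -0.12, interval -0.32 to 0.081). Large subunit proteins with bacterial counterparts followed: Mrpl34 had a log2 fold of -0.12, Mrpl33 of -0.11 and Mrpl28 of -0.091, and Mrpl30 one of -0.085. Their intervals all included 0. Mrps18c, a counterpart of bacterial S18, had 39.7 FPKM in GluN1Cre and 43.2 FPKM in GluN1, a log2 fold of -0.12. Its model covered 42.3 kb where GENCODE lists 5.845 kb. On the higher side the folds of Mrpl14, Mrps25, Mrpl52 and Mrpl54 were 0.088, 0.071, 0.057 and 0.046. Their implied standard errors were larger than the folds, at 0.35, 0.16, 0.36 and 0.12 in the same order. Mrpl20 was assembled into a main model of 62.3 FPKM in GluN1Cre and 62.3 FPKM in GluN1, and a minor one of 0.715 FPKM in GluN1Cre and 0.826 FPKM in GluN1, so that its reads were split. Mrps9 had, beside its tested model, 1 more below the level that Cuffdiff tested.

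The lean to lower values was greatest in GluN1Cre against WT, though no gene passed. Here 0 of 77 models were called, against 0.841% of all tested models, and 0 of 77 had an unadjusted p under 0.05, against 4.32%. Folds were below 0 in 63 models and above 0 in 14, with a median of -0.047 on the log2 scale and a range from -0.27 to 0.081. Over all tested models the median was -0.0080 and 53.4% of folds were below 0, and among models of at least 1 FPKM the figures were -0.012 and 55.8%. Medians were -0.043 over 26 small subunit models, 20 of them below 0, and -0.049 over 50 large subunit models, 42 of them below 0. The mitochondria-specific proteins of the large subunit had a median of -0.074, with 16 of 18 below 0, and those of the small subunit -0.038, with 8 of 9. Proteins with a bacterial counterpart had medians of -0.044 in the large subunit, with 26 of 32 below 0, and -0.055 in the small subunit, with 12 of 17. Genes measured in the same libraries share their scaling and are not independent replicates, so the number of genes that lean one way is a description and carries no test.

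Mrpl46 had the smallest p of any member in the 3 tables, 0.087 in the authors' deposited table. It stood at 16.4 FPKM in GluN1Cre and 18.7 FPKM in WT (log2 fold -0.19, interval -0.40 to 0.027). Its neighbour Mrps11, a small subunit protein with a bacterial counterpart, stood at 12.7 FPKM in GluN1Cre and 12.4 FPKM in WT (log2 fold 0.026, interval -0.20 to 0.25). The interval includes the fold of Mrpl46, and the difference between the genes was not tested. The pair lies head to head on chromosome 7, the authors' Mrpl46 model ending at 78783089 and their Mrps11 model starting at 78783131, while GENCODE lets the genes overlap. The authors' models of the pair thus do not overlap, and the use of strand in counting is not given in the sources used here. Whether reads of either gene entered the model of the other was not tested.

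Mrpl38 had 21.6 FPKM in GluN1Cre and 24.0 FPKM in WT (log2 fold -0.15, p = 0.116 in the authors' deposited table), Mrpl11 a log2 fold of -0.13, Mrpl27, a bacterial-type protein near the peptidyl transferase centre, one of -0.16, and Mrpl2, which helps form that centre, one of -0.11. Mrps36 had 2.02 FPKM in GluN1Cre and 2.43 FPKM in WT (log2 fold -0.27, interval -0.73 to 0.20). Mrpl48 had a log2 fold of -0.16 with an implied standard error of 0.62. Those above 0 were led by Mrpl9 at 0.081, Mrps2 at 0.080, Mrps30 at 0.068 and Mrpl47 at 0.048. The members near Grin1 again differed in sign, Mrpl41 standing at 9.74 FPKM in GluN1Cre and 10.5 FPKM in WT (log2 fold -0.11), and Mrps2 at 14.7 FPKM in GluN1Cre and 13.9 FPKM in WT. The Mrpl41 model again reached beyond the annotated gene, at 25.35 kb against 0.982 kb. In bulk tissue, fewer cells of a type and less RNA per cell cannot be told apart. The 3 comparisons share their groups, so the same values of Mrps2, 0.15, -0.065 and 0.080, are not separate observations.

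**Figure D3:**
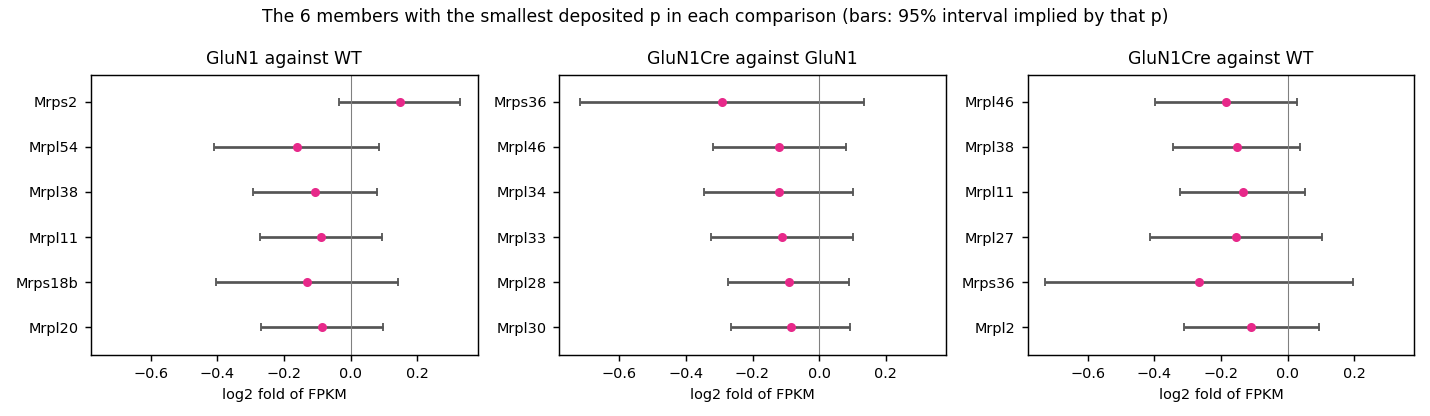
Log2 folds of the 6 members with the smallest deposited p in each comparison (points) with the 95% interval implied by that p (bars), ordered by p from the top. All 18 intervals include 0; the one closest to excluding it is Mrpl46 in GluN1Cre against WT.

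The called models give a guide to the size of fold that could be called. Within the members' range of FPKM the smallest absolute log2 fold called was 0.24 in GluN1 against WT, 0.28 in GluN1Cre against GluN1 and 0.26 in GluN1Cre against WT. The largest absolute fold of a member was 0.21, 0.29 and 0.27 in the same order, so nearly all members lay in a band where calls are rare or lacking. Of all models in that range with folds no larger than the members', 0 of 11223, 3 of 12865 and 1 of 12740 were called. With the deposited p as a guide, the 95% interval of the fold stayed within 0.5 on either side of 0 for 70 of 76, 71 of 77 and 71 of 77 models. The smallest called folds are those of single models and not a bound for each member, since a larger standard error needs a larger fold. Mrps36 in GluN1Cre against GluN1, at -0.29 with an implied standard error of 0.22, was not called. Differences below the smallest called folds, and larger ones in less certain members, could thus have been missed. The values do not show that the groups are alike. The deposited test statistic would give a wider spread, a median of 0.22 per fold in GluN1 against WT where the p gives 0.11.

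**Figure D4:**
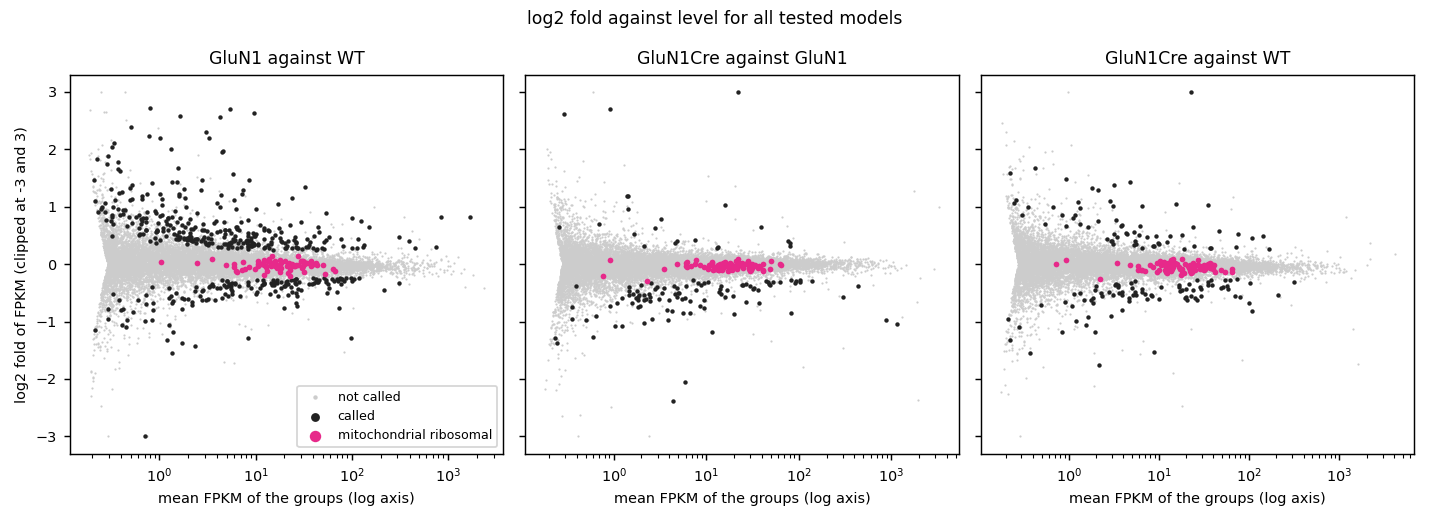
Log2 fold (vertical axis, clipped at -3 and 3) against mean FPKM (log axis) for all tested models in the 3 comparisons, with called models in black and the mitochondrial ribosomal models in pink. The pink points lie in the centre of the cloud in each panel, between the called models; 5, 4 and 3 models lie beyond the clipping limits.

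A few proteins of the same particle carry other names, namely Dap3, Ptcd3, Chchd1, Aurkaip1, Gadd45gip1, Mrp63 and Ict1. Of 7 such models 0 were called in any comparison, with medians of -0.012, -0.053 and -0.047 for GluN1 against WT, GluN1Cre against GluN1 and GluN1Cre against WT. Dap3, a GTP-binding protein of the small subunit, had a log2 fold of -0.061 in GluN1 against WT, and Gadd45gip1 one of -0.10 in GluN1Cre against WT. In the same order of comparisons, the factors that assemble the particle and modify its RNA had 0 calls of 23, 23 and 24, with medians of 0.022, -0.0080 and -0.013. The smallest p among them in GluN1 against WT was that of Gtpbp10, a GTPase of large subunit assembly, at a log2 fold of 0.16. Mitochondrial translation factors had 0 calls of 16 each time, with medians of -0.0058, 0.012 and 0.0099, led in GluN1 against WT by the elongation factor gene Tufm at 0.18. With 2.52%, 0.689% and 0.841% of all tested models called, lists of this size would hold few calls or none at the overall share, so a count of 0 says little about them.

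The 1 called gene of the mitochondrial translation lists was Lars2, the mitochondrial leucyl-tRNA synthetase. It rose to 126.6 FPKM in GluN1, against 72.8 FPKM in WT (log2 fold 0.80; the authors' deposited table gives q = 0.00456), and fell to 58.9 FPKM in GluN1Cre, against 106.2 FPKM in GluN1 (log2 fold -0.85; the authors' deposited table gives q = 0.0118). In GluN1Cre against WT it stood at 58.3 and 60.6 FPKM (log2 fold -0.056). The other 18 of 19 synthetase models were not called in any table, and the list medians were -0.0027, -0.018 and -0.022. The main model of Rn45s, the precursor of cytosolic ribosomal RNA, moved beside Lars2, with log2 folds of 0.81, -0.98 and -0.16 in the same comparisons. It stood at 1087 FPKM in GluN1 and 618 FPKM in WT. The part of ribosomal RNA reads in the Lars2 value was not tested.

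Genes that maintain, transcribe or process mitochondrial DNA and its RNA had 0 calls of 23, 23 and 22, and general markers of mitochondrial mass, such as import and outer membrane proteins, 0 of 23, 23 and 21. Their medians in GluN1Cre against WT were -0.016 and -0.0081, with 13 of 22 and 16 of 21 models below 0. The activators of nuclear genes for mitochondria had 0 calls of 12, 13 and 12. Among them Ppargc1a, a coactivator of mitochondrial biogenesis, had 10.8 FPKM in GluN1 and 10.1 FPKM in WT (log2 fold 0.10), and Pprc1, its relative, 4.66 FPKM in GluN1 and 5.20 FPKM in WT (log2 fold -0.16). Other large protein complexes leaned the same way as the members in GluN1Cre against WT: nuclear subunits of oxidative phosphorylation had a median of -0.066, with 75 of 86 models below 0, and cytosolic ribosomal proteins one of -0.065, with 61 of 83 below 0. In GluN1Cre against GluN1 these medians were -0.048 (66 of 86 below 0) and -0.015 (46 of 84). In GluN1 against WT they were -0.0094 (45 of 87) and -0.044 (57 of 83). The oxidative phosphorylation models had 0 calls in each comparison. Of the cytosolic ribosomal models 0 of 83 were called in GluN1 against WT. In GluN1Cre against GluN1 1 of 84 was called higher, and in GluN1Cre against WT 1 of 83, against 0.689% and 0.841% of all tested models. The largest log2 folds of that list in these comparisons were 3.96 and 3.48. In GluN1Cre against WT the median level was 6.98 FPKM for the cytosolic ribosomal models, which ran from 0.374 to 494.5 FPKM. It was 17.8 FPKM for the members and 92.3 FPKM for the oxidative phosphorylation models. How well these models measure the cytosolic ribosomal protein genes was not tested. The difference between these lists and the members was not tested.

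**Figure D5:**
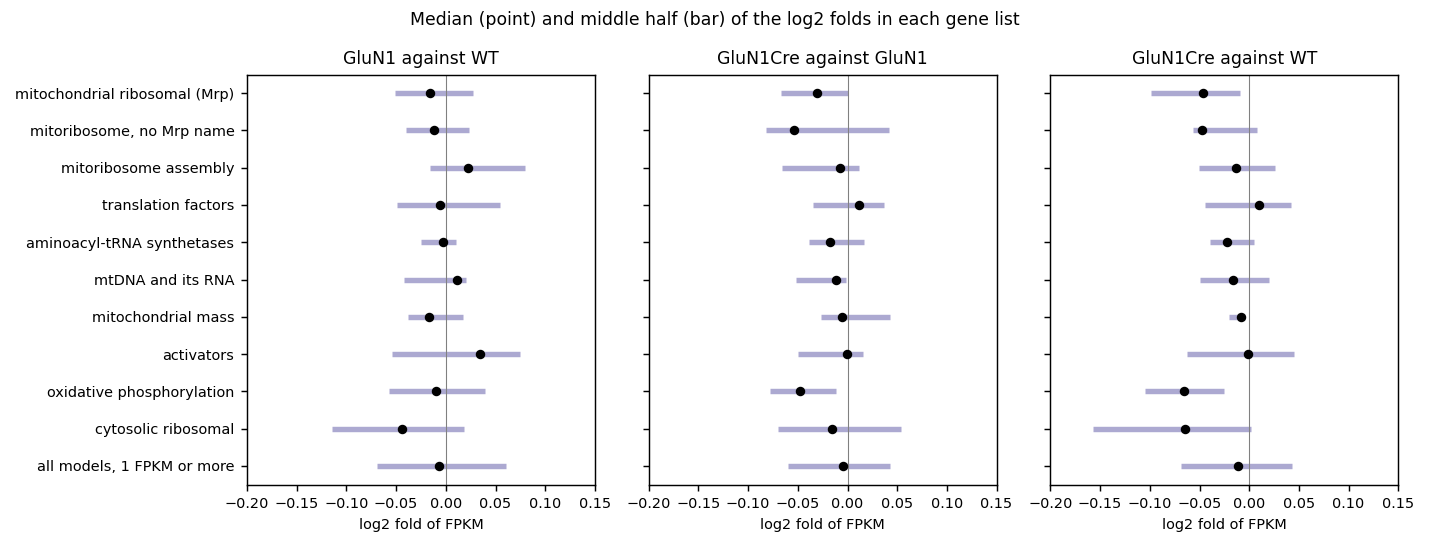
Median log2 fold (points) and the range between the quartiles (bars) for the members, the other mitochondrial lists, oxidative phosphorylation subunits, cytosolic ribosomal proteins and all models of at least 1 FPKM, in the 3 comparisons. In GluN1Cre against WT the members, the oxidative phosphorylation subunits and the cytosolic ribosomal proteins have medians of -0.047, -0.066 and -0.065, and all models one of -0.012.

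Mitochondrial ribosomal protein genes often sit back to back with another gene. In GENCODE M21, 18 of the 76 (23.7%) had a protein-coding gene on the other strand that starts within 1000 bases upstream (or up to 100 bases inside), against 7.21% of 21911 protein-coding genes. The protein-coding genes set beside them were not limited to those expressed in these libraries. The partners include Sars2, the mitochondrial seryl-tRNA synthetase, next to Mrps12, and Ndufs6, a complex I subunit, next to Mrpl36. Of the 18 partners, 1 was called in each comparison, against 2.52%, 0.689% and 0.841% of all tested models. Zfp189, a zinc finger gene whose start lies 83 bases from that of Mrpl50 in GENCODE, fell to 2.16 FPKM in GluN1, against 3.35 FPKM in WT (log2 fold -0.63; the authors' deposited table gives q = 0.00456), and to 2.35 FPKM in GluN1Cre, against 3.29 FPKM in WT (log2 fold -0.49; the authors' deposited table gives q = 0.0098). Mrpl50, a mitochondria-specific protein of the large subunit, had 14.2 FPKM in GluN1 and 14.5 FPKM in WT (log2 fold -0.027, interval -0.21 to 0.15), and 14.0 FPKM in GluN1Cre and 14.2 FPKM in WT (log2 fold -0.022, interval -0.20 to 0.16). The interval of Mrpl50 thus did not reach the fold of its partner in either comparison, although their difference was not itself tested. Pnpla7, next to Mrpl41 and near Grin1, fell to 2.52 FPKM in GluN1Cre, against 3.31 FPKM in GluN1 (log2 fold -0.39; the authors' deposited table gives q = 0.0291), where Mrpl41 had a log2 fold of -0.080.

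The promoter of Mrpl50 shows how close these starts lie. The sequence is that of RefSeq on GRCm38.p6, from 250 bases before the start of Mrpl50 to 50 bases after it, chr4:49521034-49521333 on the minus strand, 5′ to 3′. Capitals mark the stretch between the RefSeq starts of Zfp189 and Mrpl50, which lie 91 bases apart there.
Mrpl50: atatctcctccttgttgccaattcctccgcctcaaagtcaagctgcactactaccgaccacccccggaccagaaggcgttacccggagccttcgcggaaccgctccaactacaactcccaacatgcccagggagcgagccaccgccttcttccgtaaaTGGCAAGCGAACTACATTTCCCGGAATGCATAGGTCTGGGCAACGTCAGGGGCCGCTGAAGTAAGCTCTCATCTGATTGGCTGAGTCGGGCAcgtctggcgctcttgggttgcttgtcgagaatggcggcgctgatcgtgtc

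RefSeq promoters of this kind were found for 67 of the 76 genes. Letters of the factors NRF1, GABPA (an ETS factor) and YY1, known as activators of nuclear genes for mitochondria, were looked for on both strands. The ETS letters CCGGAAG were in the promoters of 24 of the 67 genes (35.8%), against 12.9% of 17492 protein-coding genes and 9.93% of all 27025 genes with a promoter. The NRF1 letters GCGCATG were in 8 (11.9%), against 5.40% of protein-coding genes and 4.41% of all, and the YY1 letters AAGATGG in 13 (19.4%), against 7.18% and 7.28%. The TATA letters TATAAA were in 5 (7.46%), against 14.8% and 15.7%. ETS and YY1 letters can share AAG, which happened in 0 of the 67. At least 1 of the first 3 motifs was in 36 of the 67, and a match of letters is no proof of binding. Neither comparison set of promoters was limited to genes expressed in these libraries. Whether other expressed genes hold these motifs as often as the members was not tested.

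2 promoters show the arrangement, each from 250 bases before to 50 bases after the start in RefSeq on GRCm38.p6, 5′ to 3′, with motif letters of either strand in capitals. Mrps18b, at chr17:35916391-35916690 on the minus strand, holds 2 NRF1 matches and 1 ETS match. Mrps12, at chr7:28741772-28742071 on the minus strand, holds 1 YY1 and 1 ETS match.
Mrps18b: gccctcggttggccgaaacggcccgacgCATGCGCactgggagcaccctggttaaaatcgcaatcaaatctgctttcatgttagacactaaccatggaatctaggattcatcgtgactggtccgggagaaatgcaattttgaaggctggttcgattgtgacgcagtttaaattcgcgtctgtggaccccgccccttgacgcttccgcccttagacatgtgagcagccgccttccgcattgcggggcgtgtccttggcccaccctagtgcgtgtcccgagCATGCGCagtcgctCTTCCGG
Mrps12: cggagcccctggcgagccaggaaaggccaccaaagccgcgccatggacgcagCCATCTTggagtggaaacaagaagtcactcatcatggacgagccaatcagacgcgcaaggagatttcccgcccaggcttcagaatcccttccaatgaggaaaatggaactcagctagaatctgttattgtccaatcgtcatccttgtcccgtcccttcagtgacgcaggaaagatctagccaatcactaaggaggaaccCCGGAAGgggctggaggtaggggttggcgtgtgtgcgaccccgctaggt

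Folds were also split by the ETS letters, the most common of these motifs. In GluN1 against WT the median log2 fold was -0.013 over the 24 genes with ETS letters and -0.017 over the 43 without, and in GluN1Cre against GluN1 it was -0.032 and -0.026. In GluN1Cre against WT it was -0.087 with ETS letters and -0.042 without. The other motifs gave no common direction in that comparison: the median was -0.025 with YY1 letters and -0.053 without, -0.037 with NRF1 letters and -0.052 without, and -0.13 with TATA letters and -0.049 without. None of these differences was tested. The genes whose promoters are printed did not pass in any table. Mrps18b had 6.08 FPKM in GluN1 and 6.66 FPKM in WT, and 6.26 FPKM in GluN1Cre and 6.10 FPKM in GluN1. Mrps12 had 31.6 FPKM in GluN1 and 31.7 FPKM in WT, and 30.6 FPKM in GluN1Cre and 32.8 FPKM in WT.

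Members that could not be separated from a neighbour were kept and are uncertain. In GluN1 against WT 5 of 76 models carried a further symbol. Mrps6 shared its model with Slc5a3, a myo-inositol transporter gene, at 29.3 FPKM in GluN1 and 26.6 FPKM in WT (log2 fold 0.14). Mrps15 was merged with Oscp1, at 30.4 FPKM in GluN1 and 33.4 FPKM in WT (log2 fold -0.14), and Mrps21 with Prpf3, at 65.1 FPKM in GluN1 and 70.5 FPKM in WT (log2 fold -0.12). Mrps23, merged with Cuedc1, and Mrpl53, merged with Ccdc142, had log2 folds near 0. The share of the fragments that belongs to each gene of a merged model cannot be told apart. GENCODE M21 also names 5 pseudogenes after 3 of the members, and whether these take reads of the members was not tested.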

How the data were processed

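Frontal cortex RNA of 12 mice, 4 in each of 3 groups, was measured by RNA-seq. Per the submitters' processing notes, the authors used FastQC 0.65, TopHat2 2.1.0, Cufflinks 2.2.1.0 and Cuffdiff 2.2.1.3 with the builds mm10 and GRCm38. Per the file headers, the authors' 3 deposited tables give an FPKM per group, its log2 ratio, a p-value, a q-value and a test statistic, which is a score, for each assembled model. Depth per sample is unknown, since only FPKM is given. Benjamini-Hochberg adjustment of the deposited p-values gave the deposited q-values to within 5.14e-07.

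Folds were recomputed from the deposited FPKM (first group over second, no pseudocount), because 498 fold cells of the table of GluN1Cre against GluN1 could not be read. The tables call the knockdown NR1, an older name of GluN1, and were tied to groups through the tables that each sample's labels list. Members were rows with status OK whose symbols match the naming rule; a model was called at p under 0.05 and q under 0.10, the threshold of the series' design text. Intervals took the fold divided by the normal deviate of its p as a standard error, which treats that p as normal. The code for counts and medians was run on simulated tables with set folds and calls, without noise in the folds, and returned what had been set. This checks the code only and not how well changes are found in noisy data. Python 3.11.15, pandas 2.3.3, numpy 2.4.6 and scipy 1.17.1 were used. Genes named were Grin1, the 6 members with the smallest p and the 4 largest positive and negative folds per table (1 symbol, at least 1 FPKM), the highest and lowest 3 by level, members within 10 Mb of Grin1, split or merged members, and up to 2 genes per pathway list. Other genes (Mrps11, Mrps12, Mrpl12, Mrpl45, Mrpl50, Zfp189, Pnpla7, Rn45s, Sars2, Ndufs6, Mrpl36, Mrpl35, Mrpl55) were chosen after their values were seen. Members and lists were chosen with earlier results of these data known.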

Additional observations from a re-analysis of the deposited data

How the results depend on the processing

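No member had an unadjusted p under 0.05 in the authors' tables, so the count of called members had to be 0 at q under 0.05 and in every subset of the members (single-symbol models, 1 model per symbol, without those within 10 Mb of Grin1, and without Mrps36, the last chosen after seeing the data), and these settings do not show that the count is stable. The same holds for models of at least 1 FPKM with p readjusted. The members' median log2 fold ran from -0.017 to -0.0096 in GluN1 against WT, from -0.031 to -0.027 in GluN1Cre against GluN1, and from -0.051 to -0.035 in GluN1Cre against WT, over pseudocounts of 0.1 and 1 FPKM, the same subsets, deposited folds and centring on all models of at least 1 FPKM. Centring gave the value nearest 0 in all 3 comparisons. A shift under 0.016, the larger of the median shifts of a group between tables, was taken as no change; the median in GluN1 against WT is itself about that size, so this bound could not show its stability. The log2 fold of Grin1 ran from -1.28 to -1.27, from 0.39 to 0.40 and from -0.82 to -0.81. No paired analysis was possible because the tables hold 1 pooled value per group, and for the same reason no animal could be left out. The values carry no read counts, so precision at low levels is unknown.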
